A study of Mus musculus with 6 samples.

Results

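Aldehyde dehydrogenases oxidise aldehydes to the corresponding acids, in most cases with NAD+ or NADP+ as the electron acceptor. The 10 genes described here, Aldh2, Aldh1b1, Aldh1l1, Aldh3a2, Aldh4a1, Aldh5a1, Aldh6a1, Aldh7a1, Aldh8a1 and Aldh9a1, were taken by gene symbol from a table of 55401 mouse gene models, in which 21 symbols start with Aldh. All 10 were among the 14741 genes that reached a mean FPKM of 0.1 and were tested. FPKM is the number of fragments per kilobase of transcript, scaled to sequencing depth. None was chosen by its response to the treatment, but the family was chosen with earlier results of these data known.

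The liver is rich in these enzymes. Some of them clear acetaldehyde from ethanol and the reactive aldehydes that arise when polyunsaturated fatty acids are oxidised, and others carry out single steps in the breakdown of amino acids, in folate metabolism or in carnitine synthesis. 9-HODE and 13-HODE are hydroxylated products of linoleic acid, the main dietary polyunsaturated fatty acid.

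Livers of 3 mice given 9/13-HODEs and of 3 Ctrl mice were compared. All were male C57BL/6 mice, 8 weeks old at the start, injected into the peritoneum once a day for 9 days. The 9/13-HODEs-treated mice received 0.5 μg of HODEs per g of body weight, with 9-HODE and 13-HODE in equal parts, and the Ctrl mice received the solvent, polyethylene glycol in water. Each library was made from poly(A) RNA of the liver of 1 mouse, and no engineered allele is named for these mice. The mixture was given at 1 dose and 1 duration, so the effects of the 2 oxidised lipids cannot be told apart here. In RNA of whole liver, fewer cells of a type and less RNA per cell cannot be told apart either.

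The libraries held between 70300597 and 78615288 counts, and edgeR put the common biological coefficient of variation within groups at 0.36. Counts from the mitochondrial genome made up 11.8%, 11.6% and 10.5% of the 9/13-HODEs libraries and 9.00%, 9.51% and 6.70% of the Ctrl libraries, without overlap. Alb, the serum albumin gene of hepatocytes, was among the hepatocyte markers, whose summed FPKM lay between 59648 and 70140 in 9/13-HODEs livers and between 64694 and 70006 in Ctrl livers. The summed levels of all 9 other marker lists, for endothelial, Kupffer, stellate, bile duct, immune, fat and red cells and for the 2 liver zones, overlapped between the groups as well. Of the 7 pericentral hepatocyte markers 6 had a lower fitted level in 9/13-HODEs livers (median log2 fold change -0.21), against 2 of the 7 periportal markers (median 0.10). The fitted level was also higher in 9/13-HODEs livers for 6 of 6 stellate markers (median 0.26) and 5 of 6 endothelial markers (median 0.28). It was higher for 4 of 6 Kupffer markers (median 0.15), 4 of 6 bile duct markers (median 0.14) and 0 of 5 red cell markers (median -0.25). In each of these lists 1 marker was lower in 9/13-HODEs livers without overlap in FPKM: Adgre1 (Kupffer), Cldn7 (bile duct) and Alas2 (red cell). Adgre1 had FPKM values of 0.275, 0.339 and 0.261 in 9/13-HODEs livers and of 0.486, 0.448 and 0.394 in Ctrl livers. Of all tested genes 9.82% were lower without overlap in FPKM. Lyve1, a marker of sinusoidal endothelium, had FPKM values of 0.801, 1.15 and 0.908 in 9/13-HODEs livers and of 0.452, 0.300 and 0.700 in Ctrl livers. It was the only endothelial marker without overlap in FPKM. Of the 7 lymphocyte and neutrophil markers 4 were tested, and all 4 had a positive log2 fold change (median 1.08) with an unadjusted edgeR p above 0.05. S100a9, a calcium-binding protein of neutrophils, had FPKM values of 1.19, 7.20 and 2.63 in 9/13-HODEs livers and of 1.16, 0.618 and 1.89 in Ctrl livers, while Ly6g, another neutrophil marker, had no counts in any library. For fat cells 1 library stood apart: 9/13-HODEs mouse 1 had 63 counts of Adipoq, 38 of Plin1 and 4 of Lep, and the other 5 libraries had 0 of each. Retn, also of fat cells, had 61, 8 and 10 counts in 9/13-HODEs livers and 0 in all 3 Ctrl livers. Cidea had 12, 0 and 0 counts in 9/13-HODEs livers and 0, 12 and 0 in Ctrl livers, and Cfd overlapped between the groups. Without 9/13-HODEs mouse 1, 0 of the 10 aldehyde dehydrogenases had an unadjusted edgeR p under 0.05. The same held without Ctrl mouse 1 and without Ctrl mouse 3. The part of these differences in the values below was not tested.

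The 10 genes showed little response. With the quasi-likelihood test of edgeR, adjusted by Benjamini-Hochberg over all tested genes, 0 of the 10 had an adjusted p under 0.05, and DESeq2 and limma also called 0. The same edgeR test called 3 of the 14741 genes, or 0.0204%. At an unadjusted p under 0.05 edgeR picked 1 of the 10, Aldh8a1, against 7.69% of all tested genes. The fitted level was higher in 9/13-HODEs livers for 4 of the 10 and lower for 6, although 7 or 8 were lower when the values were scaled to total counts, FPKM or TPM. The median log2 fold change of the 10 was -0.07, beside 0.00 for all tested genes. In 9 of the 10 the 95% interval of the fold change lay within 2-fold in either direction, Aldh1b1 being the exception, and in 9 it included 0, Aldh8a1 being the exception.

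**Figure D1:**
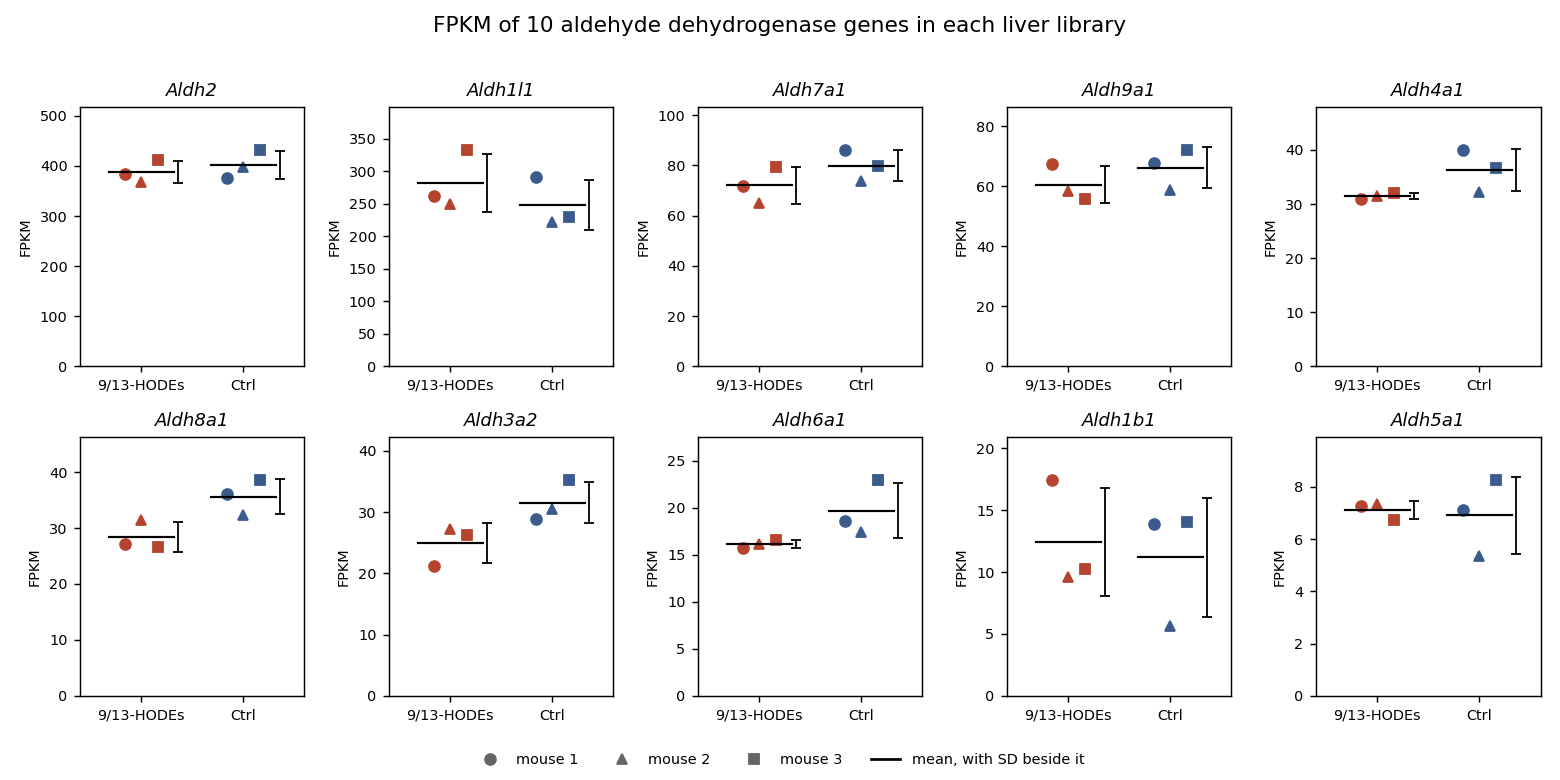
FPKM (y axis, linear, from 0) of each of the 10 aldehyde dehydrogenase genes in the livers of 9/13-HODEs mice (red, left) and Ctrl mice (blue, right). Symbols are single mice, horizontal lines are means of n = 3 and the bars beside them are SD. In Aldh8a1, Aldh3a2, Aldh4a1 and Aldh6a1 all 3 treated mice lie below all 3 Ctrl mice, and in the other 6 genes the groups overlap.

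On the FPKM scale the groups did not overlap for 4 genes, Aldh3a2, Aldh4a1, Aldh6a1 and Aldh8a1, and each of these was lower in all 3 treated livers. Of all tested genes 15.1% had groups without overlap in FPKM, and 9.82% had them without overlap and lower in 9/13-HODEs livers. The 4 genes were also apart on TPM and on CPM, counts scaled to the library total. On TPM 2189 of the 14741 tested genes were lower without overlap and 499 higher. On CPM 1575 were lower without overlap and 726 higher. After TMM scaling, which corrects for differences in RNA composition between libraries, only Aldh8a1 was left, against 7.52% of all tested genes lower without overlap on that scale. TMM multiplies the depth of each library by a factor, which was 0.980, 1.02 and 0.927 in 9/13-HODEs libraries and 1.02, 0.989 and 1.07 in Ctrl libraries. This choice of scales was made after the values were seen. With 3 mice against 3 the smallest exact two-sided permutation p is 0.1, which each of the 4 genes reached in FPKM.

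Upstream sequences are printed for members of these 4, the genes that stood lower in all 3 treated livers in FPKM. Each RefSeq window of 250 bases was cut at the first annotated exon base. This left 222 bases for Aldh4a1, 241 for Aldh8a1, 250 for Aldh6a1 and 0 for Aldh3a2, which is not printed. RefSeq promoter entries (GRCm38.p6) matched 8 of the 10 genes in 9 windows, with 2 windows for Aldh6a1, of which the one at the outer end of the gene is printed. Aldh2 and Aldh7a1 had no entry. Capitals mark the CCAAT box, read as CCAAT or, on the other strand, as ATTGG. Each sequence runs 5′ to 3′ on the strand of its gene and ends at or just before the annotated start. The stretches are chr4:139622644-139622865 (plus strand) for Aldh4a1, chr12:84451025-84451274 (minus strand) for Aldh6a1 and chr10:21377050-21377290 (plus strand) for Aldh8a1.
Aldh4a1: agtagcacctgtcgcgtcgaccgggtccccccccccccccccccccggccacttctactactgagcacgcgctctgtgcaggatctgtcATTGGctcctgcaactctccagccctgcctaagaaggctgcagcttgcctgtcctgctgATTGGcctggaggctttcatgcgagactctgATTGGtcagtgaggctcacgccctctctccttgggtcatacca
Aldh6a1: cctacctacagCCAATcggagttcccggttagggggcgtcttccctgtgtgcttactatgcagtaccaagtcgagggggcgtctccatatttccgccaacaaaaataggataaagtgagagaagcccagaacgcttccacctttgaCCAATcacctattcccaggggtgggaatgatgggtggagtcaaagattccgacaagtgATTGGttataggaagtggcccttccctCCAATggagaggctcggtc
Aldh8a1: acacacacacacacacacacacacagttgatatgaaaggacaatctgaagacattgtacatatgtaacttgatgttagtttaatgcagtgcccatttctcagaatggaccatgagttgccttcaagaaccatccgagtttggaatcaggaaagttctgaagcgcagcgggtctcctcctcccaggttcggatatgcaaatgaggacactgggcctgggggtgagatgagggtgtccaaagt
The Aldh6a1 stretch held 4 CCAAT matches and the Aldh4a1 stretch held 3, whereas the Aldh8a1 stretch held 0 and opened with a run of alternating a and c. The 3 stretches thus differed in this motif, and the inner Aldh6a1 window, chr12:84448318-84448567, held 1 match.

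In the 250 bases before the start, a CCAAT box stood in 7 of the 9 windows, against 33.8% of 32851 RefSeq mouse promoters of that length. The 9 windows belong to 8 of the 10 genes, and the 7 include both windows of Aldh6a1. The RefSeq start of Aldh1l1, 90550793, lies inside its gene model, which begins at 90486427. The windows of Aldh3a2 and Aldh5a1 open within an annotated exon. A GC box, GGGCGG, stood in 3 of the 9, against 32.7% of all. A TATA box, TATAAA, stood in 0, against 12.4%. An E-box, CACGTG, stood in 1, against 6.02%. The nuclear receptor motif AGGTCA stood in 2, against 14.0%, and the antioxidant response core TGACNNNGC in 1, against 10.2%. Both strands were searched, and matches that share letters with another motif were counted for each. These matches describe the letters and no binding was measured.

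By level, the 10 genes were dominated by a pair. FPKM divides by a length per gene, so the shares, ranks and ratios between genes depend on that length. How the authors set it is not given in the sources used here, and whether it matches the transcripts present was not tested. Aldh2 made up 42.5% of the summed FPKM of the 10 genes and Aldh1l1 28.5%. Among all tested genes by mean FPKM, Aldh2 ranked 147 and Aldh5a1, the lowest of the 10, ranked 3146. The summed FPKM was 905, 863 and 998 in 9/13-HODEs livers and 967, 876 and 970 in Ctrl livers, with means of 922 ± 69.0 and 938 ± 53.2 (SD, n = 3 each, exact permutation p = 0.9). The summed level thus overlapped, and the treated livers held both the lowest and the highest sum.

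Aldh2 exceeded Aldh1l1 1.49-fold in mean FPKM, and Aldh1l1 exceeded Aldh7a1 3.48-fold, in both cases with no overlap over the 6 libraries. Aldh7a1 came next among the 10, with a mean FPKM of 76.0, while Aldh1a1, outside the 10, had a mean of 120. The range of Aldh7a1, 65.0 to 86.0 FPKM, overlapped that of Aldh9a1, 55.8 to 72.0 FPKM. Aldh7a1 was nonetheless higher than Aldh9a1 in each of the 6 libraries. Aldh9a1 stood 1.87-fold above Aldh4a1 without overlap. Below it the order was Aldh4a1, Aldh8a1, Aldh3a2, Aldh6a1, Aldh1b1 and Aldh5a1, and the ranges of all neighbours in it overlapped. Aldh4a1 was higher than Aldh8a1 in only 4 of the 6 libraries, Aldh6a1 higher than Aldh1b1 in 5, and the other neighbours kept their order in all 6.

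Aldh2 encodes the mitochondrial enzyme that oxidises acetaldehyde and aldehydes of lipid peroxidation. The gene lies on the minus strand of chromosome 5, from 121566027 to 121593824. It had FPKM values of 384, 368 and 412 in 9/13-HODEs livers and of 377, 398 and 431 in Ctrl livers. The groups overlapped, with the lowest value in a treated mouse and the highest in a Ctrl mouse, and the log2 fold change was 0.02 ± 0.13 (SE; edgeR adjusted p = 0.985), with a 95% interval from -0.29 to 0.33. This small difference lay on either side of 0 depending on the scaling: it was -0.06 with total counts and -0.13 on TPM, where the median of all genes was itself at -0.14. With between 154256 and 184374 counts per library, Aldh2 was the most deeply sampled of the 10.

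Aldh1b1, its mitochondrial relative that also accepts acetaldehyde, was the most variable. It lies on the plus strand of chromosome 4, from 45799022 to 45804604, in a gene of only 2 exons. Its FPKM values were 17.4, 9.60 and 10.3 in 9/13-HODEs livers and 13.8, 5.65 and 14.1 in Ctrl livers. Each group held 1 mouse apart from the other 2, a high one among the treated and a low one among the Ctrl mice. The coefficients of variation were 35.0% in 9/13-HODEs livers and 42.9% in Ctrl livers. The log2 fold change was 0.23 ± 0.38 (SE, 95% interval -0.67 to 1.13; edgeR adjusted p = 0.896). It was -0.08 without 9/13-HODEs mouse 1 and -0.07 without Ctrl mouse 2.

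**Figure D2:**
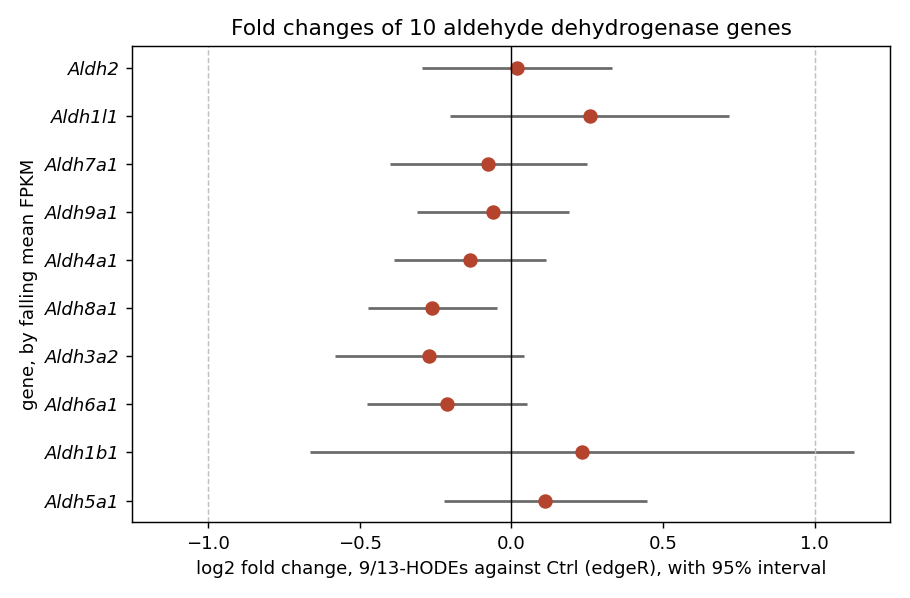
Log2 fold change of 9/13-HODEs against Ctrl livers (x axis) for the 10 aldehyde dehydrogenase genes, in order of falling mean FPKM. Points are edgeR estimates from n = 3 mice per group, lines are 95% intervals and dashed lines mark 2-fold. The interval of Aldh8a1 (-0.47 to -0.05) lies below 0, and that of Aldh1b1 (-0.67 to 1.13) reaches past 2-fold.

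Aldh4a1, Aldh5a1 and Aldh6a1 encode the other 3 mitochondrial enzymes, and each ends or nearly ends the breakdown of an amino acid. Aldh4a1 makes glutamate from the pyrroline carboxylate that comes from proline. It lies on the plus strand of chromosome 4, from 139622866 to 139649690, and had FPKM values of 31.0, 31.4 and 32.0 in 9/13-HODEs livers and of 39.9, 32.3 and 36.7 in Ctrl livers. In FPKM the treated mice were nearly alike, with a coefficient of variation of 1.56% against 10.6% in Ctrl mice, and Ctrl mouse 2 stood just above them. On the TMM-scaled log2 CPM scale the SD was 0.09 in 9/13-HODEs livers and 0.13 in Ctrl livers. The log2 fold change was -0.14 ± 0.11 (SE, 95% interval -0.39 to 0.11; edgeR adjusted p = 0.766).

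Aldh6a1 oxidises methylmalonate semialdehyde from valine and from thymine, and passes the product to coenzyme A. It lies on the minus strand of chromosome 12, from 84430717 to 84451004. FPKM values were 15.7, 16.2 and 16.6 in 9/13-HODEs livers and 18.6, 17.5 and 23.0 in Ctrl livers. The treated livers again lay close together in FPKM, with a coefficient of variation of 2.73% against 14.7% in Ctrl livers, whereas the SD of TMM-scaled log2 CPM was 0.11 in 9/13-HODEs livers and 0.15 in Ctrl livers. The difference was a log2 fold change of -0.21 ± 0.11 (SE, 95% interval -0.48 to 0.05; edgeR adjusted p = 0.685).

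Aldh5a1 turns succinate semialdehyde into succinate, the last step in the breakdown of the transmitter GABA. It lies on the minus strand of chromosome 13, from 24907579 to 24937661, and was the lowest of the 10, with FPKM values of 7.27, 7.33 and 6.73 in 9/13-HODEs livers and of 7.13, 5.35 and 8.27 in Ctrl livers. The Ctrl mice held both the lowest and the highest value. Its log2 fold change was 0.11 ± 0.14 (SE, 95% interval -0.22 to 0.45; edgeR adjusted p = 0.859), and it was -0.02 on TPM. The gene shares exon positions with 9330162012Rik on the opposite strand, which had a mean count of 268 against 3248 for Aldh5a1, and whether the counting used strand is not stated in the sources used here.

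Aldh1l1, Aldh8a1 and Aldh9a1 encode cytosolic enzymes, which differed from one another. Aldh1l1, the formyltetrahydrofolate dehydrogenase that releases carbon dioxide from the folate pool, lies on the plus strand of chromosome 6, from 90486427 to 90600203. It had FPKM values of 263, 249 and 332 in 9/13-HODEs livers and of 292, 222 and 230 in Ctrl livers. The highest value belonged to a treated mouse and the lowest to a Ctrl mouse, but the groups overlapped. Its log2 fold change, 0.26 ± 0.19 (SE, 95% interval -0.20 to 0.72; edgeR adjusted p = 0.762), was the largest positive one of the 10 and ranged from 0.07 to 0.40 when single mice were left out.

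Aldh8a1 acts in the kynurenine pathway of tryptophan breakdown, where it oxidises aminomuconate semialdehyde. The gene lies on the plus strand of chromosome 10, from 21377291 to 21396585. Its FPKM values were 27.2, 31.4 and 26.6 in 9/13-HODEs livers and 36.0, 32.3 and 38.6 in Ctrl livers. All 3 treated mice lay below all 3 Ctrl mice, with treated mouse 2 and Ctrl mouse 2 less than 1 FPKM apart. The means were 28.4 ± 2.64 and 35.6 ± 3.20 FPKM (SD, n = 3 each). The log2 fold change was -0.26 ± 0.09 (SE, 95% interval -0.47 to -0.05), which is 16.6% lower, with an unadjusted edgeR p of 0.0232 and an adjusted p of 0.649. Its unadjusted p passed 0.05 in 12 of 16 alternative analyses, with a range from 0.0181 to 0.0837. Of the analyses that left out 1 mouse, it did not pass without 9/13-HODEs mouse 1, without Ctrl mouse 1 or without Ctrl mouse 3.

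Aldh9a1 oxidises trimethylaminobutyraldehyde in the synthesis of carnitine, the carrier of fatty acids into mitochondria. It lies on the plus strand of chromosome 1, from 167349991 to 167368532. FPKM values were 67.5, 58.4 and 55.8 in 9/13-HODEs livers and 67.9, 58.9 and 72.0 in Ctrl livers. The groups overlapped, and the log2 fold change was -0.06 ± 0.11 (SE, 95% interval -0.31 to 0.19; edgeR adjusted p = 0.906).

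Aldh7a1 and Aldh3a2 complete the family. Aldh7a1, known as antiquitin, is found in mitochondria, cytosol and nucleus and oxidises aminoadipic semialdehyde from lysine. It lies on the minus strand of chromosome 18, from 56509687 to 56572951. It had FPKM values of 71.6, 65.0 and 79.6 in 9/13-HODEs livers and of 86.0, 73.8 and 79.9 in Ctrl livers. The groups overlapped, with a log2 fold change of -0.08 ± 0.14 (SE, 95% interval -0.40 to 0.25; edgeR adjusted p = 0.908). Aldh7a1 shares exon positions with Phax on the opposite strand, which had a mean count of 1137 against 32238 for Aldh7a1.

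Aldh3a2 is the fatty aldehyde dehydrogenase of the endoplasmic reticulum and peroxisomes, which oxidises long-chain aldehydes from fatty alcohols, plasmalogens and sphingolipids. It lies on the minus strand of chromosome 11, from 61223417 to 61267464. Its FPKM values were 21.2, 27.3 and 26.3 in 9/13-HODEs livers and 28.9, 30.5 and 35.3 in Ctrl livers. The treated mice all lay below the Ctrl mice in FPKM, and treated mouse 1 was the lowest. The log2 fold change was -0.27 ± 0.13 (SE, 95% interval -0.58 to 0.04; edgeR adjusted p = 0.676), the most negative of the 10. The unadjusted edgeR p was 0.0784, and over the 16 alternatives it ranged from 0.0316 to 0.221, passing 0.05 in 6.

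**Figure D3:**
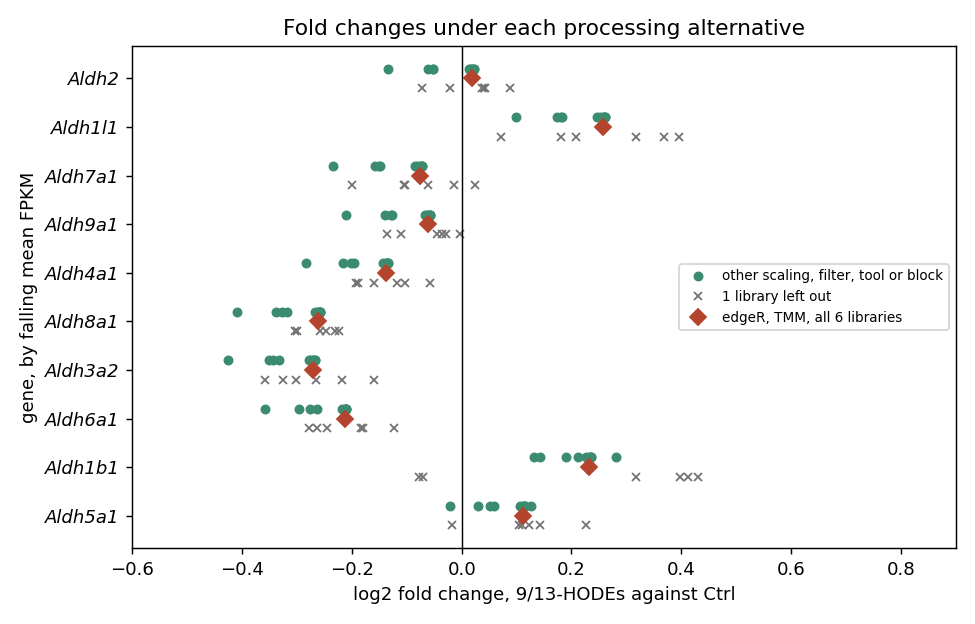
Log2 fold change of 9/13-HODEs against Ctrl livers (x axis) for each of the 10 genes in 17 analyses. Red diamonds are edgeR with TMM scaling on all 6 libraries, green circles are other scalings, filters, tools and the replicate block, and grey crosses leave out 1 library each. Aldh8a1, Aldh3a2, Aldh6a1, Aldh4a1 and Aldh9a1 stay below 0 and Aldh1l1 stays above 0 in all 17, while Aldh2, Aldh7a1, Aldh1b1 and Aldh5a1 fall on both sides.

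Single mice differed over the 10 genes. Ctrl mouse 3 had the highest FPKM of the 6 libraries in 6 of the 10 genes, and Ctrl mouse 2 had the lowest of its group in 8. Among the treated mice no mouse was the highest of the 3 in more than 5 genes. Such counts were not made over all tested genes, so they cannot be called particular to the 10. Ctrl mouse 3 was also the library with the lowest share of counts from the mitochondrial genome, 6.70%, and the largest TMM factor, 1.07. The part of these in the FPKM differences was not tested.

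By compartment, the 5 mitochondrial enzymes made up 50.1% of the summed FPKM, and 2 of them had a negative log2 fold change (median 0.02). The 3 cytosolic enzymes made up 38.7%, and 2 were negative (median -0.06). The KEGG pathways that the authors' table assigns to the genes put Aldh2, Aldh1b1, Aldh3a2, Aldh7a1 and Aldh9a1 together in 11 pathways, among them fatty acid, lysine and tryptophan degradation. Aldh1l1 was listed under 1 pathway, the one-carbon pool by folate. The 5 genes that share pathways had log2 fold changes from -0.27 to 0.23, so they did not lie on 1 side of 0.

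Of the 11 other Aldh genes in the table, 5 were tested and 0 had an unadjusted p under 0.05. Aldh1a1 and Aldh1a7, cytosolic enzymes of the retinaldehyde group, had the highest levels of these. Aldh1a1 had FPKM values of 95.4, 115 and 120 in 9/13-HODEs livers and of 123, 112 and 154 in Ctrl livers. For Aldh1a7 they were 76.6, 68.4 and 62.1 in 9/13-HODEs livers and 83.6, 49.5 and 69.8 in Ctrl livers. Their transcripts are 89.1% identical over 2072 bases, so the division of reads between them is uncertain, and in both genes the groups overlapped. Aldh16a1, a longer family member, had 6.87, 11.0 and 12.6 FPKM in 9/13-HODEs livers and 8.50, 12.5 and 11.3 FPKM in Ctrl livers, with overlap, near the level of Aldh1b1. Aldh1l2, Aldh3a1 and Aldh3b2 had no counts in any library. Among the 10 genes, only Aldh4a1 shared a stretch of like similarity with another gene, 1128 bases with Gm21969, which had a mean count of 3.83.

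The pathways around the 10 enzymes were described with 9 lists of 84 genes, of which 81 were in the table and 76 were tested. By edgeR 0 of the 76 had an adjusted p under 0.05, as by limma, and DESeq2 called 1, Aox3, beside 0.604% of all tested genes. The fitted level was higher in 9/13-HODEs livers for 28 and lower for 48, with a median log2 fold change of -0.07, and 49.9% of all tested genes were lower. At an unadjusted p under 0.05 edgeR picked 1 of the 76 higher and 6 lower, against 4.08% of all tested genes higher and 3.61% lower.

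**Figure D4:**
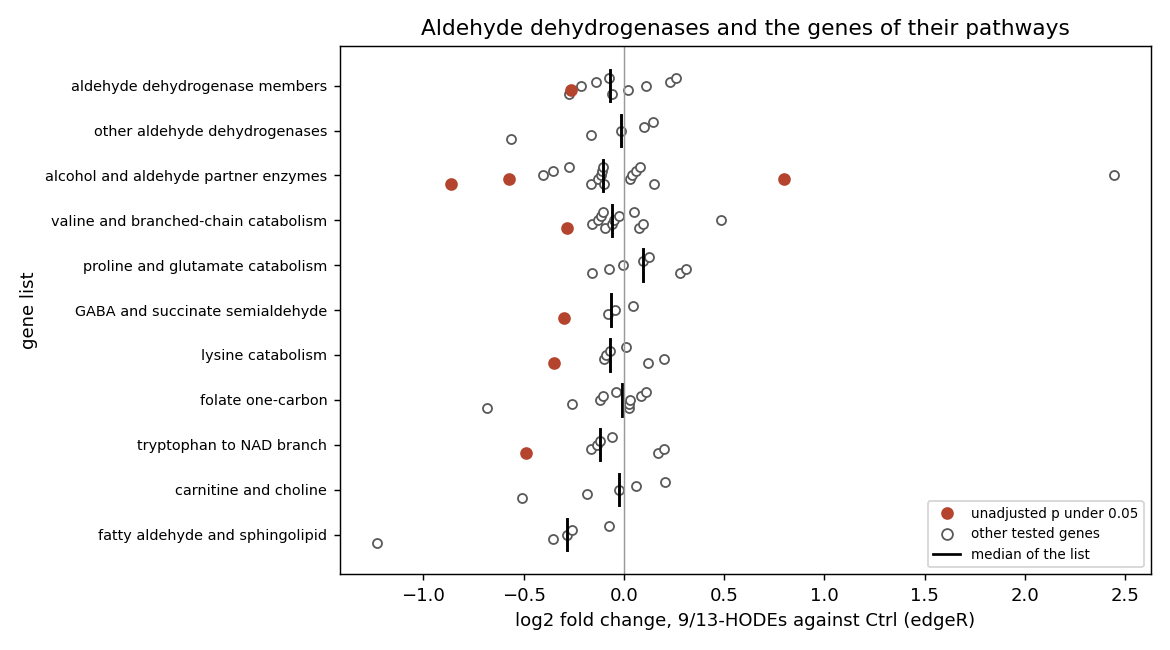
Log2 fold change of 9/13-HODEs against Ctrl livers (x axis, edgeR, n = 3 mice per group) for the 10 aldehyde dehydrogenases (top), the other tested Aldh genes and 9 lists of genes from their pathways. Each circle is a gene, filled where the unadjusted p is under 0.05, and vertical bars are list medians. Aox3 (-0.86) and Aox1 (-0.57) are the filled circles farthest to the left, and the open circle farthest to the right is Akr1b7 (2.44), which had between 0 and 80 counts per library.

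Among 18 enzymes of alcohol and aldehyde metabolism, the aldehyde oxidases stood apart. These molybdenum enzymes also turn aldehydes into acids, with oxygen in place of NAD+. Aox3 had FPKM values of 18.9, 19.3 and 13.6 in 9/13-HODEs livers and of 31.8, 32.0 and 34.3 in Ctrl livers, with no overlap. Its log2 fold change was -0.86 ± 0.12 (SE), with an adjusted p of 0.269 by edgeR, 4.19e-05 by DESeq2 and 0.325 by limma. Aox1 had 2.56, 3.34 and 2.93 FPKM in 9/13-HODEs livers and 4.78, 4.23 and 4.71 FPKM in Ctrl livers, again with no overlap. Its log2 fold change was -0.57 ± 0.12 (SE; edgeR adjusted p = 0.649). The unadjusted p of both genes stayed under 0.05 in all 16 alternatives. Akr1b10, an aldo-keto reductase that reduces aldehydes to alcohols, had the only positive difference with an unadjusted p under 0.05 in these lists, at 0.257, 0.319 and 0.294 FPKM in 9/13-HODEs livers and 0.215, 0.126 and 0.191 FPKM in Ctrl livers. It passed in only 5 of its 15 alternatives, with log2 fold changes from 0.13 to 0.97.

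Several genes next to the enzymes in their pathways were lower at an unadjusted p under 0.05, and 0 of them passed the adjusted threshold by edgeR, DESeq2 or limma. Aadat makes aminoadipate into its keto acid in lysine breakdown, and had FPKM values of 30.3, 32.6 and 25.8 in 9/13-HODEs livers and of 38.7, 39.3 and 39.9 in Ctrl livers. Its log2 fold change was -0.35 ± 0.09 (SE; edgeR unadjusted p = 0.00696, adjusted p = 0.649), and all treated mice lay below all Ctrl mice. Tdo2, the dioxygenase that opens the kynurenine pathway in which Aldh8a1 acts, had 75.5, 93.2 and 60.6 FPKM in 9/13-HODEs livers and 121, 90.9 and 124 FPKM in Ctrl livers. The groups overlapped in FPKM, and the log2 fold change was -0.49 ± 0.16 (SE; edgeR unadjusted p = 0.0192, adjusted p = 0.649).

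Abat, the transaminase that supplies Aldh5a1 with succinate semialdehyde, had 10.6, 10.5 and 10.1 FPKM in 9/13-HODEs livers and 13.8, 11.3 and 15.4 FPKM in Ctrl livers. Mmut, the mutase downstream of valine and propionate, had 7.48, 8.27 and 7.24 FPKM in 9/13-HODEs livers and 9.42, 8.38 and 11.6 FPKM in Ctrl livers. In both the groups did not overlap, and the log2 fold changes were -0.30 for Abat and -0.28 for Mmut. The unadjusted p was under 0.05 in 16 of 16 alternatives for Aadat, in 11 for Tdo2, in 11 for Abat and in 5 for Mmut. The summed FPKM of the whole list overlapped between groups for 6 of the 9 lists. It did not for lysine catabolism, at 268 to 281 in 9/13-HODEs livers and 303 to 319 in Ctrl livers, or for the tryptophan list, at 342 to 350 in 9/13-HODEs livers and 355 to 408 in Ctrl livers. The fatty aldehyde and sphingolipid list, which centres on the reactions of Aldh3a2, was also apart, at 525 to 601 in 9/13-HODEs livers and 687 to 761 in Ctrl livers. These sums depended on the scale. With FPKM divided by the TMM factor of each library, a comparison added after the values were seen, the lysine and tryptophan lists overlapped. Only the fatty aldehyde list stayed apart, at 536 to 647 in 9/13-HODEs livers and 675 to 729 in Ctrl livers. Most of that sum came from Phyh, which acts on phytanic acid in peroxisomes and had 506, 577 and 573 FPKM in 9/13-HODEs livers and 657, 694 and 724 FPKM in Ctrl livers.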

How the data were processed

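Liver RNA of 3 9/13-HODEs-treated and 3 Ctrl mice, 1 library each, was sequenced in pairs on an Illumina NovaSeq. The methods and the labels name different RNA extraction reagents and input amounts. Counts in the deposited table are whole numbers per gene, not normalized, and sum to between 70300597 and 78615288 per library. FPKM, which the authors scaled to gene length and depth, stands beside each count, with genes without counts listed at 0.0001. The submitters' processing notes name HISAT2 2.0.4 and StringTie 1.3.4d, and also UMI-tools, edgeR, DESeq2 and cutadapt 1.9, with no role or order. The genome build, the use of strand in counting and the use of the molecular identifiers are not given in the sources used here. Of 55401 gene IDs, 55141 were found in GENCODE M21 (GRCm38), 51957 with equal start and end, and coordinates are those of the authors' table.

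The 14741 genes whose mean FPKM reached 0.1 were tested on the counts with edgeR 4.0.16 (R 4.3.3; TMM, quasi-likelihood test, Benjamini-Hochberg adjustment, threshold 0.05). TPM was computed from FPKM, and log2 CPM with a prior count of 2. Single values were compared with an exact two-sided permutation test. Alternatives were other scalings, an FPKM minimum of 1 and none, robust moderation, DESeq2 1.42.0, limma 3.58.1 on log2(FPKM + 0.1), log2(FPKM + 1) and log2(TPM + 0.1), each library left out, and the replicate number as a block. The fits were tested on simulated data. Similar transcripts were sought with BLAST+ 2.17.0 (minimum identity 80%, minimum length 150 bases and 30% of the transcript). All 10 genes are named with their values. Of each other list the 3 tested genes of smallest unadjusted p could be named; Alb, Ly6g, the fat cell markers, Aldh1a7, Aldh16a1, Akr1b7, Acadsb, Cbr1 and the Aldh genes without counts were named after their values were seen. The members, lists and markers were chosen with earlier results of these data known. Whether the libraries came from separate cages or litters is not given, and no 2 libraries of a group agreed within sampling noise.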

Additional observations from a re-analysis of the deposited data

How the results depend on the processing

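No alternative gave any of the 10 genes an adjusted p under 0.05. Of the 10, 1 had an unadjusted p under 0.05 with edgeR, TMM and all libraries, beside 1133 of the 14741 tested genes. With total counts it was 3 (Aldh3a2, Aldh6a1 and Aldh8a1), beside 1141. It was 2 with each of the 3 limma analyses (Aldh3a2 and Aldh8a1), beside 1153 on log2(FPKM + 0.1), 1151 on log2(FPKM + 1) and 1384 on log2(TPM + 0.1). When 1 library was left out it was 0 to 2, beside 866 to 1129. It was 0 without 9/13-HODEs mouse 1, Ctrl mouse 1 or Ctrl mouse 3. The median log2 fold change of all tested genes was -0.07 with total counts, -0.06 and -0.03 on the FPKM scales and -0.14 on TPM. Over all genes, 3 had an adjusted p under 0.05, against 89 by DESeq2 and 3 to 16 with 1 library left out, the most without Ctrl mouse 3. Deviations of same-numbered mice correlated at 0.01, -0.03 and -0.04 over genes, and those of differently numbered mice at -0.01 to 0.04. Deviations from a mean of 3 mice sum to 0, which ties these values to one another. As a set, the same-numbered values were not above the others, and pairing by replicate number was not tested further. With the replicate number as a block, 0 genes had an adjusted p under 0.05. Of the 10 genes, Aldh3a2 in place of Aldh8a1 then had an unadjusted p under 0.05. Groups without overlap numbered 4 of the 10 in FPKM and 1 after TMM scaling, and the summed level of 3 of the 9 pathway lists was apart in FPKM and of 1 after division by the TMM factor, both comparisons chosen after seeing the data. The median log2 fold change of the 10 was -0.22 on TPM, where that of all genes was -0.14, so 0.08 below it, and it was -0.13 to 0.01 with 1 library left out, the sign turning without 9/13-HODEs mouse 2. The log2 fold change of Aldh2 turned to -0.062 with total counts, -0.052 on both FPKM scales and -0.13 on TPM, and lay between -0.072 and 0.088 with 1 library left out (-0.072 without 9/13-HODEs mouse 3 and -0.021 without Ctrl mouse 1). That of Aldh5a1 turned to -0.022 on TPM and lay between -0.018 and 0.23 with 1 library left out. With 1 library left out Aldh1b1 lay between -0.077 and 0.43 and Aldh7a1 between -0.20 and 0.024. The causes were not tested.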

Other observations

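Among the tested genes of the 9 pathway lists with a mean FPKM of at least 1, 4 had a highest value of at least 5 times the lowest within a group, a limit set after the values were seen. In 2 of them, Asah1 and Chdh, the spread was among treated mice, and in the other 2, Acadsb and Cbr1, it was among Ctrl mice. Asah1, the acid ceramidase that releases sphingosine, had FPKM values of 0.335, 3.83 and 0.381 in 9/13-HODEs livers and of 3.82, 2.64 and 4.42 in Ctrl livers, so that 2 treated mice were low and 1 was within the range of the Ctrl mice. Chdh, which makes betaine aldehyde from choline in mitochondria, had 11.3, 9.82 and 2.17 FPKM in 9/13-HODEs livers and 10.7, 10.7 and 12.6 FPKM in Ctrl livers, with 1 low treated mouse. The unadjusted edgeR p was 0.217 for Asah1 and 0.354 for Chdh, so neither difference between the groups passed 0.05. Acadsb, an acyl-CoA dehydrogenase of isoleucine breakdown, had 6.31, 5.74 and 6.88 FPKM in 9/13-HODEs livers and 7.88, 5.26 and 0.827 FPKM in Ctrl livers. Cbr1, a carbonyl reductase, had 10.6, 10.8 and 14.8 FPKM in 9/13-HODEs livers and 14.0, 28.5 and 5.20 FPKM in Ctrl livers. The groups overlapped in both.

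Sds, which deaminates serine and is a marker of periportal hepatocytes, had FPKM values of 193, 205 and 181 in 9/13-HODEs livers and of 166, 132 and 124 in Ctrl livers, without overlap. Its log2 fold change was 0.52 ± 0.14 (SE, edgeR unadjusted p = 0.00711, adjusted p = 0.649). Of all tested genes 4.08% were higher in 9/13-HODEs livers at an unadjusted edgeR p under 0.05. Of the 7 periportal markers Sds was the only 1 with an unadjusted p under 0.05 or without overlap in FPKM. In 2 of the 7 the log2 fold change was negative, and the summed FPKM of the list overlapped.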
